A study of Mus musculus with 11 samples.

Results

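Unsorted mouse cells in the course of reprogramming towards stem cells were compared with embryonic fibroblasts, the cell type they were made from. This used 3 of the 11 expression arrays of the study. Unsorted cells were whole reprogramming cultures taken at day 6 and at day 9, with 1 array for each day. They derived from embryonic fibroblasts at passage 4 that were heterozygous for a doxycycline-dependent activator, Rosa-rtTA +/-. These fibroblasts were infected, in the presence of polybrene, with viruses carrying Klf4, Oct4, Myc and Sox2 under the tetO promoter, and doxycycline was given from day 0, the day after infection. The comparison array held mouse embryonic fibroblasts (MEF) of passage 4 with the same heterozygous Rosa-rtTA allele, and the labels name neither infection nor doxycycline for them. Infection, polybrene, doxycycline, the introduced factors and time in culture thus all separate the unsorted cells from MEF and cannot be told apart. An unsorted culture is a mixture, and the labels do not say how many of its cells carried every virus. Cells sorted at the same days as CD49d+, CD73+ or CD73-, the partially reprogrammed line SC4 and V6.5 embryonic stem cells (ESC) make up the other arrays, and they were used here only to place the unsorted cells.

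Reprogramming turns a fibroblast, a mesenchymal cell that lays down collagen matrix, into a cell with the properties of an embryonic stem cell. In its first days, cultures are known to lose fibroblast surface and matrix genes, to divide more and to switch on epithelial genes, a change called the mesenchymal-to-epithelial transition. Genes of the stem cell network itself, such as Nanog, come on late and in few cells. Klf4 is also known as a regulator of epidermal differentiation, and Myc as a driver of ribosome production and cell division.

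Values are intensities as deposited, on a linear scale with a floor of 100, and differences are of log2 intensity, unsorted cells minus MEF. A gene was counted as higher or lower where it passed 2-fold, a log2 difference of 1, in the same direction at day 6 and at day 9. Each group had 1 array, so no difference has a replicate or a test, and both days were set against the same MEF array. The labels do not say whether days 6 and 9 came from separate cultures. A fold against an array at the floor is given as "at least". In such bulk samples, fewer cells of a type and less RNA per cell cannot be told apart. The share of probe sets at the floor was 54.31% at day 6, 53.77% at day 9 and 53.35% in MEF. Of 3 genes often used for reference and chosen after their values were seen, the glycolytic enzyme gene Gapdh had an intensity of 8595 and 8718 in unsorted cells and 8434 in MEF, and the actin gene Actb 3905 and 4164 against 4214. The third, the purine salvage gene Hprt, had 1806 and 2042 in unsorted cells and 722 in MEF and was itself higher at both days.

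The labels were first set against genes that mark the cells. Klf4 had an intensity of 4134 at day 6 and 3989 at day 9, against 704 in MEF, and was 5.87-fold and 5.66-fold higher. Thy1, a surface glycoprotein by which fibroblasts are commonly recognised, had 738 and 1194 in unsorted cells at days 6 and 9, against 4926 in MEF. Krt14, a keratin of the basal layer of the epidermis, had 943 and 989 in unsorted cells and 181 in MEF. For these 3 genes both unsorted arrays lay on the same side of MEF, with log2 differences of 2.55 and 2.50 for Klf4, -2.74 and -2.04 for Thy1, and 2.38 and 2.45 for Krt14. The probe set of Pou5f1, the gene of Oct4, read 118 and 125 in unsorted cells and 105 in MEF, and that of Sox2 lay at the floor of 100 on all 3 arrays. That of Myc read 263 and 387 in unsorted cells and 468 in MEF. None of these 3 probe sets passed 2-fold. In ESC, which express Oct4, the Pou5f1 probe set read 123, no higher than in unsorted cells at day 9, so its values do not show whether Oct4 was present. The Sox2 probe set read 3829 in ESC. Detection of the virus-borne copies by these probe sets was not tested.

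Markers of cell types gave a similar separation. Of the fibroblast markers, 8 of 8 were lower in unsorted cells, and their summed intensity was 6267 at day 6 and 8265 at day 9, against 33521 in MEF. Of the epithelial markers, 2 of 4 were higher, with sums of 1626 and 2549 in unsorted cells and 745 in MEF. The stem cell markers Zfp42, Esrrb and Dppa5a were at the floor on all 3 arrays, and Nanog had 100 and 119.6 in unsorted cells and 100 in MEF. Of 6 macrophage and blood markers, 0 passed 2-fold and 4 (Ptprc, Csf1r, Tyrobp and Cd52) were at the floor on all 3 arrays, with sums of 1027 and 1174 in unsorted cells and 856 in MEF. Endothelial markers had 1 of 5 higher, and skeletal muscle markers 0 of 5.

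Of 13364 named genes above the floor on at least 1 of the 3 arrays, 1038 (7.77%) were higher at both days and 1032 (7.72%) lower. These shares are the background against which every count of list members below is read. Together these are 2070 genes (15.5%). Taken by itself, day 6 had 1441 genes (10.8%) higher and 1236 (9.25%) lower, in all 20% of genes, and day 9 had 1133 (8.48%) higher and 1149 (8.6%) lower, in all 17.1%. No gene (0) passed 2-fold in opposite directions at the 2 days. The unsorted arrays differed much less from each other, with 48 genes (0.359%) at least 2-fold higher at day 9 than at day 6 and 36 (0.269%) at least 2-fold lower, in all 0.629%. With each array centred on its median, taken over genes above the floor on all 3 arrays, these were 67 and 20. Differences of at least 4-fold at both days were seen for 175 higher and 245 lower genes, and of at least 8-fold for 30 and 41. Of the higher genes, 116 were at the floor in MEF, and of the lower genes 100 were at the floor on both unsorted arrays and 51 on 1 of them. The genes nearest the threshold were Polr2e, a subunit of RNA polymerases, just inside with intensities of 3006 and 2882 in unsorted cells and 1441 in MEF, and Fam13b with 290.5 and 331 in unsorted cells and 663 in MEF. Just outside lay 2310033P09Rik, with intensities of 873 and 794 in unsorted cells and 397 in MEF, and Hid1, with 100 and 111 in unsorted cells and 222 in MEF.

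The 12 higher genes with the largest differences were taken among those measured above the floor on all 3 arrays. Ak4, a mitochondrial adenylate kinase, had an intensity of 1800.4 and 1509 in unsorted cells and 111 in MEF. The carbonic anhydrase Car12 had 1429.7 and 1426 in unsorted cells and 108 in MEF. Shmt1, an enzyme of one-carbon metabolism, had 1819 and 1435 in unsorted cells and 111 in MEF. In these 3 enzyme genes MEF lay just above the floor and the smaller of the 2 folds was 13.6 for Ak4 and 13.2 for Car12. Jag2, a Notch ligand, had 1762 and 1297 in unsorted cells and 112 in MEF. Stmn2, a microtubule regulator best known from neurons, had 4402 and 5439.6 in unsorted cells and was well above the floor in MEF at 361. Sprr1a, a precursor protein of the cornified envelope of the skin, had 1853 and 1682 in unsorted cells and 157 in MEF. The others were Reep6, Slc35g1, Cdca7, Ly6g6c, Mfsd6 and Slurp1, the last a protein secreted by keratinocytes, with a smaller fold of 9.26. A further 3 genes were at the floor in MEF and at least 16-fold above it. These were Perp, a protein of desmosomes and a target of p53 (at least 23.5-fold at day 6 and 29.0-fold at day 9), Podxl, the sialomucin podocalyxin (at least 19.2-fold and 18.8-fold), and Krtdap, a protein of differentiating keratinocytes (at least 16.5-fold and 17.9-fold).

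**Figure D1:**
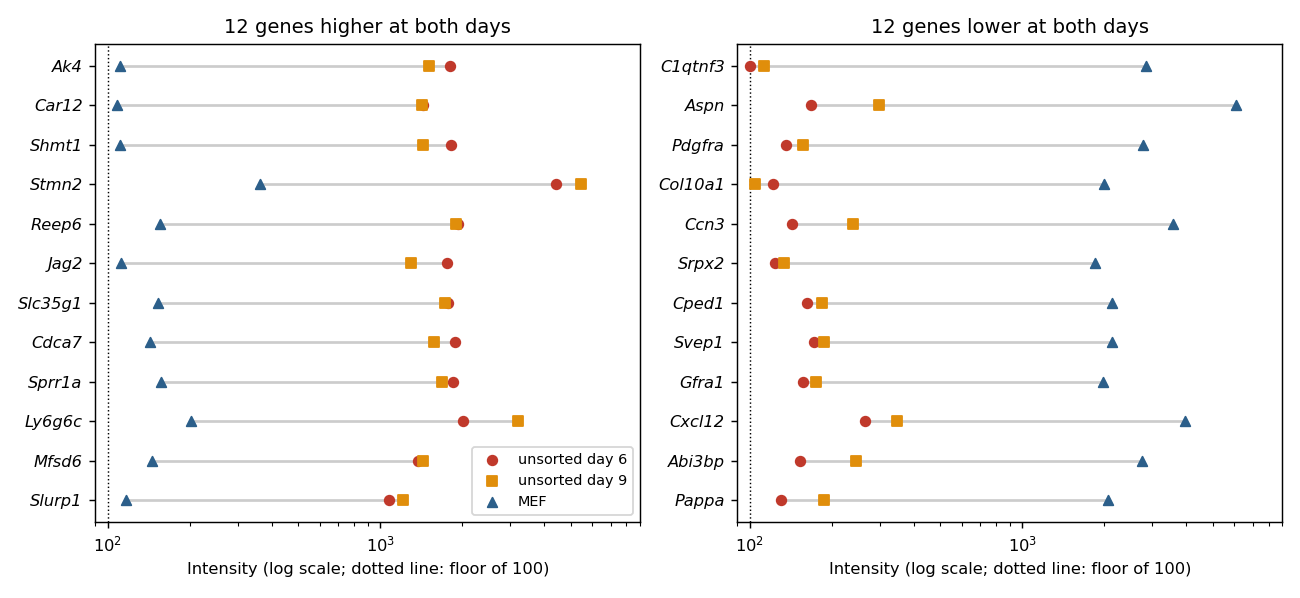
Intensity on a log axis of the 12 higher genes and the 12 lower genes with the largest differences among genes above the floor of 100 on all 3 arrays. Each point is 1 array, for unsorted cells at day 6, unsorted cells at day 9 and MEF, and for every gene drawn both unsorted arrays stand on the same side of MEF.

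The 12 lower genes with the largest differences were taken in the same way. Aspn, the proteoglycan asporin, had an intensity of 168 and 298 in unsorted cells and 6094 in MEF. Pdgfra, a receptor of platelet-derived growth factor and a marker of fibroblasts, had 136 and 157 in unsorted cells and 2775 in MEF. The secreted C1q-related protein gene C1qtnf3 had 100.4 and 113 in unsorted cells and 2849 in MEF. Unsorted cells were thus close to the floor for genes that were bright in MEF, and the smaller folds were 20.5 for Aspn, 17.7 for Pdgfra and 25.3 for C1qtnf3. The collagen Col10a1 had 122 and 104 in unsorted cells and 1986 in MEF. Cxcl12, a chemokine of stromal cells, had 264 and 347 in unsorted cells and 3934 in MEF. The matricellular gene Ccn3 and the genes Srpx2, Cped1, Svep1, Gfra1, Abi3bp and Pappa completed the set, with smaller folds between 11.0 (Pappa) and 14.9 (Ccn3). At the floor on both unsorted arrays with a bound of at least 8-fold were 9 genes, Adh1, Clca3a1, Clec2d, Cxcl15, Fibin, Lgr5, Lmcd1, Pgm5 and Rtl3. Lgr5, a receptor of R-spondins in Wnt signalling, had 1923 in MEF and was at least 19.2-fold lower, and the alcohol dehydrogenase Adh1 had 1782 and was at least 17.8-fold lower.

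**Figure D2:**
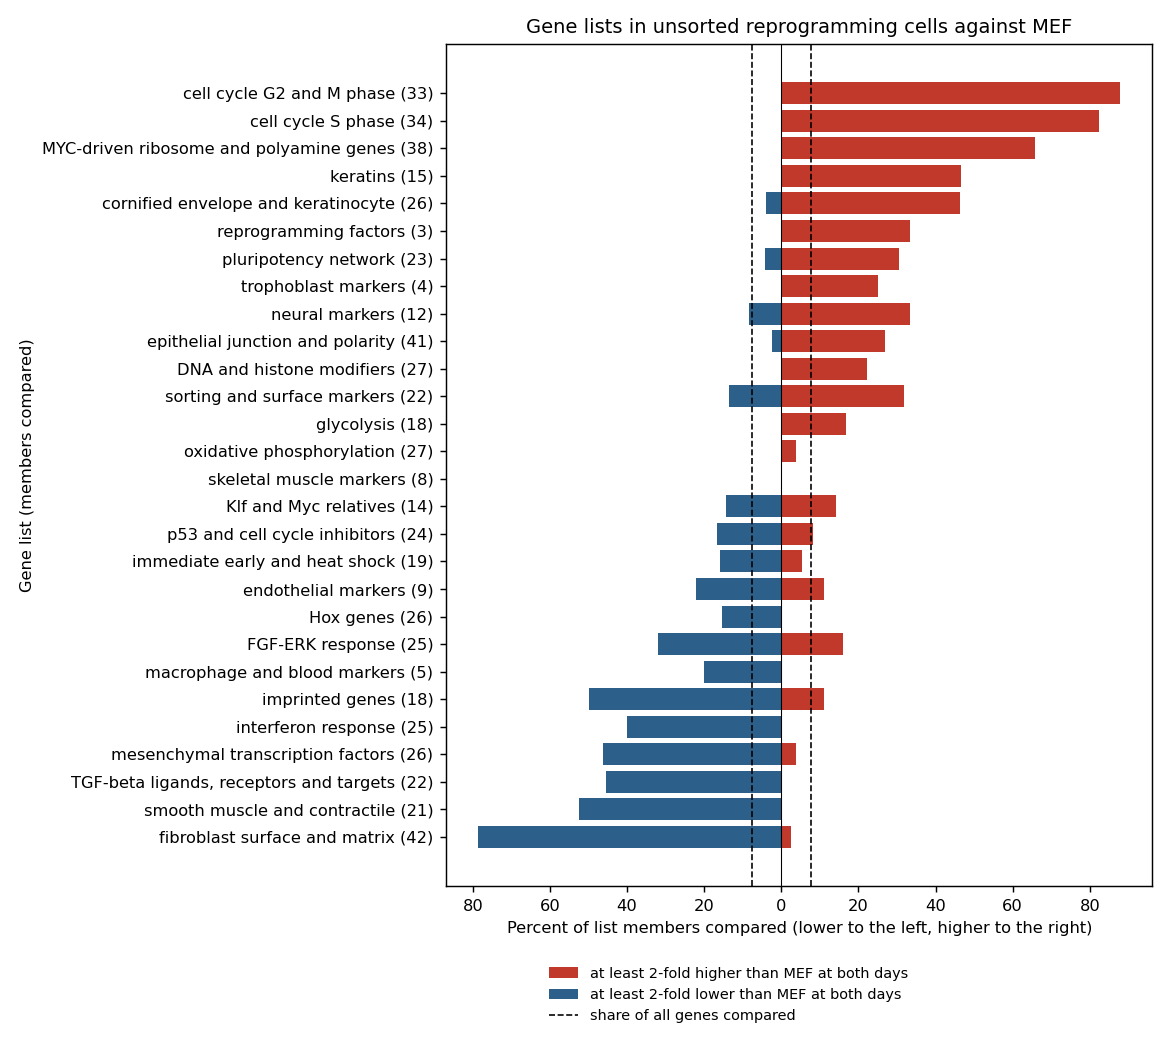
Percent of the members of each gene list that were at least 2-fold higher or at least 2-fold lower than MEF at both days, beside the same share of all genes compared (7.77% higher, 7.72% lower). Cell cycle lists stand highest on the higher side and the fibroblast surface and matrix list on the lower side.

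Fibroblast surface and matrix genes were lower as a group. Of 42 members compared, 33 (78.6%) were lower and 1 was higher, and the list median was -2.36 log2 units at day 6 and -1.73 at day 9, where the medians of all genes were 0.0017 and 0.0032. Lumican (Lum), a proteoglycan of collagen fibrils, had an intensity of 100 and 119.8 in unsorted cells and 2708 in MEF. The collagen Col12a1 had 606 and 861 in unsorted cells and 6289.8 in MEF. Pdgfrb, the other receptor of platelet-derived growth factor, had 335 and 594 in unsorted cells and 4806 in MEF. Among the fibril-forming collagens, Col1a1 had 1273 and 2173 in unsorted cells and 6664 in MEF, with log2 differences of -2.39 and -1.62 near the list medians. Col1a2 (-3.16 and -2.63) and Col3a1 (-3.05 and -2.66) had larger differences than the medians. The intermediate filament gene Vim did not pass 2-fold, at 10069.5 and 10380 in unsorted cells and 11101 in MEF. The higher member was the hyaluronan receptor gene Cd44, with 876 and 1253 in unsorted cells and 397 in MEF. In 39 of the 42 members the day 9 array read above the day 6 array, against 40.3% of all genes.

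Contractile and smooth muscle genes, which fibroblasts in culture express as part of their stress fibres, were lower in 11 of 21 members (52.4%) and higher in 0. Taken by itself, day 6 had 17 members lower, and the list median was -1.55 at day 6 and -1.05 at day 9. Myl9, a regulatory light chain of myosin, had 619 and 857 in unsorted cells and 3886 in MEF. Tagln, the actin-binding protein transgelin, had 621 and 1320.5 in unsorted cells and 4039 in MEF. Calponin (Cnn1) had 272 and 366 in unsorted cells and 1699 in MEF. The alpha actin of smooth muscle, Acta2, read 4597 and 7354 in unsorted cells and 10221 in MEF, so it passed 2-fold at day 6 but not at day 9. The promoter of Myl9 is shown because Myl9 had the largest difference among the lower members with a CArG box, the site of serum response factor, in a window with 1 start. The window is RefSeq's, on GRCm38.p6 at chr2:156775214-156775513 on the + strand, 250 bases before to 50 after the start, with the CArG box in capitals. Such a box, sought on both strands, was in 3 of 17 list genes with a promoter (17.6%). It was in 1.81% of all genes with one and in 1.57% of compared genes with one. The box was in 3 of 10 lower members and in 0 of 7 others, and 7 genes are too few to compare shares.
Myl9: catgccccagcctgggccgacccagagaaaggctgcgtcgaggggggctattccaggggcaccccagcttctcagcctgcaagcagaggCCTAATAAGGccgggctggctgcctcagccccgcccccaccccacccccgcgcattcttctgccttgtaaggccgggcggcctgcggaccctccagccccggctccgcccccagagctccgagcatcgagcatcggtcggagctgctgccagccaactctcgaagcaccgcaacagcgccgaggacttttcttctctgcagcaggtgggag

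Transcription factors of mesenchymal cells were lower in 12 of 26 members (46.2%), with a list median of -1.03 at day 6. Osr1, a factor of mesodermal connective tissue, had an intensity of 811 and 746 in unsorted cells and 4354 in MEF. Snai2, a repressor of E-cadherin that drives epithelial cells towards a mesenchymal state, had 1206 and 1507 in unsorted cells and 3769 in MEF. Twist1, another driver of that change, had 346 and 317 in unsorted cells and 732 in MEF. Both lay more than 2-fold below MEF at both days, whereas Snai1, at 259 and 286 in unsorted cells and 518 in MEF, did not pass at day 9. The forkhead gene Foxd1 was the 1 higher member, with 341 and 267 in unsorted cells and 133 in MEF, and it no longer passed when each array was centred on its median or with a floor of 200.

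Genes of TGF-beta signalling, a pathway that maintains the mesenchymal state, were lower in 10 of 22 members (45.5%) and higher in 0. The ligand gene Tgfb3 had an intensity of 1156 and 999 in unsorted cells and 5019.8 in MEF. The receptor gene Tgfbr2 had 479.7 and 606 in unsorted cells and 1876 in MEF, and the co-receptor gene Tgfbr3 had 211 and 209 in unsorted cells and 1194 in MEF. Tgfbi, a matrix protein induced by the pathway, had 346 and 494 in unsorted cells and 2659.8 in MEF. These 4 genes, a ligand, 2 receptors and a target, were all more than 2-fold below MEF at both days. Another 12 members passed in neither direction, among them the receptor gene Tgfbr1, Smad3 and Smad7. The ligand gene Tgfb2 was also among them, with 618 and 535 in unsorted cells and 997 in MEF.

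Genes of FGF signalling went both ways, with 8 of 25 members lower and 4 higher. Among the ligands, Fgf7 had an intensity of 219 and 303 in unsorted cells and 1217 in MEF, while Fgf15 had 1164 and 971 in unsorted cells and 202 in MEF. Fgf4, a growth factor of early embryos, was at the floor in MEF and at least 4.06-fold higher at day 6 and 6.42-fold at day 9. The receptor gene Fgfr2 had 133 and 105 in unsorted cells and 911 in MEF. Of the targets, the feedback inhibitor Spry1 was lower, at 439 and 512 in unsorted cells and 1883 in MEF, and the transcription factor Etv5 higher, at 1025 and 1393 in unsorted cells and 255 in MEF. The phosphatase gene Dusp6, a target of ERK, read 398 and 1027 in unsorted cells and 974 in MEF, so only its day 6 array stood apart from MEF.

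Interferon response genes, which cells switch on against viruses, were lower in 10 of 25 members (40%) and higher in 0, with a list median of -0.76 at both days. Ifit1, an RNA-binding antiviral protein, had an intensity of 164 and 214 in unsorted cells and 1194 in MEF. Oasl2, of the oligoadenylate synthetase family, had 179 and 193 in unsorted cells and 1220.1 in MEF. Stat2, which carries the interferon signal to the nucleus, had 283 and 232 in unsorted cells and 1369 in MEF, and the RNA sensor gene Ifih1 had 136 and 154 in unsorted cells and 634 in MEF. An effector, the signal carrier and a sensor thus stood more than 4-fold below MEF at both days. The promoter of Ifit1 (RefSeq, GRCm38.p6, chr19:34640639-34640938, + strand) is shown because it holds the interferon-stimulated response element, TTTC, any 2 bases and TTTC again, in capitals, at 2 places. On either strand, that motif was in 14 of 27 list genes with a promoter (51.9%). It was in 3.99% of all genes with one and in 3.41% of compared genes with one. It was present in 5 of 9 lower members and in 9 of 18 members that were not.
Ifit1: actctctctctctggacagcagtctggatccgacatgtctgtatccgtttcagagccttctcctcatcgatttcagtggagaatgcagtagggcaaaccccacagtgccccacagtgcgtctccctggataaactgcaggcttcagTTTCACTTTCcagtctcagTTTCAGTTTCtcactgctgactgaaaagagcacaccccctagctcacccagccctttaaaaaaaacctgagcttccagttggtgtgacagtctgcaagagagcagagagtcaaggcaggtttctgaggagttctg

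Imprinted genes, expressed from a single parental copy and many of them growth regulators, were lower in 9 of 18 members (50%) and higher in 2. The fetal growth factor gene Igf2 had an intensity of 369 and 399 in unsorted cells and 2436 in MEF. Peg3, a zinc finger gene expressed from the paternal copy, had 946 and 530.5 in unsorted cells and 4290.4 in MEF. The higher members, Phlda2 and Ascl2, both known from the placenta, were at the floor in MEF, and Phlda2 was at least 4.98-fold higher at day 6 and 4.24-fold at day 9. With a floor of 200, Ascl2 did not pass. Hox genes, which record body position, were lower in 4 of 26 members and higher in 0, and Hoxc8 had 436 and 457 in unsorted cells and 1601 in MEF.

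Cell cycle genes gave the highest shares of all lists on the higher side. Of S phase genes, 28 of 34 (82.4%) were higher and 0 lower, with list medians of 1.82 and 1.52. Mcm10, which helps to start replication forks, had an intensity of 1007 and 905 in unsorted cells and 114 in MEF. Cdt1, which loads the replicative helicase onto DNA, had 1886 and 1587 in unsorted cells and 245 in MEF. Its partner Cdc6 was at the floor in MEF and at least 8.22-fold higher at day 6 and 7.35-fold at day 9. The promoter of Cdc6 (RefSeq, GRCm38.p6, chr11:98907901-98908200, + strand) is shown because it holds an E2F motif, in capitals, which reads on the other strand. The motif, TTTCCCGC or TTTGGCGC on either strand, was in 10 of 31 list genes with a promoter (32.3%). It was in 1.8% of all genes with one and in 3.3% of compared genes with one. All 10 were among the 25 higher members with a promoter, and 0 among the 6 others. These 6 genes are too few to compare shares.
Cdc6: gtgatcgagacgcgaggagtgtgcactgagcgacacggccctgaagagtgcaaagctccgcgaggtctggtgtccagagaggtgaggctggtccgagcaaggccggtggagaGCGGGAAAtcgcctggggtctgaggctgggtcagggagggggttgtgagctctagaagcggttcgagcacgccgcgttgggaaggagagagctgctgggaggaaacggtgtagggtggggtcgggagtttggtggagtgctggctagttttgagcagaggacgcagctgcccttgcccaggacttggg

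Of G2 and M phase genes, 29 of 33 (87.9%) were higher and 0 lower, with list medians of 1.80 and 1.66. Nusap1, a protein of the mitotic spindle, had an intensity of 2259 and 1676 in unsorted cells and 281 in MEF. The mitotic kinase gene Aurka had 1884 and 1615 in unsorted cells and 356 in MEF, and Bub1b, of the spindle checkpoint, had 1036 and 740.5 in unsorted cells and 148 in MEF. For both cell cycle lists, day 9 read above day 6 in only 1 member, against 40.3% of all genes. Hmmr, a hyaluronan-binding protein of the spindle, was at the floor in MEF and at least 6.12-fold higher at day 6 and 5.01-fold at day 9. Its promoter (RefSeq, GRCm38.p6, chr11:40733388-40733687, - strand) is shown with the cell cycle homology region TTTGAA in capitals. On either strand, TTTGAA was in 22 of 29 list genes with a promoter (75.9%). It was in 20.2% of all genes with one and in 13.8% of compared genes with one. It was in 19 of 25 higher members and in 3 of 4 others, and 4 genes are too few to compare shares.
Hmmr: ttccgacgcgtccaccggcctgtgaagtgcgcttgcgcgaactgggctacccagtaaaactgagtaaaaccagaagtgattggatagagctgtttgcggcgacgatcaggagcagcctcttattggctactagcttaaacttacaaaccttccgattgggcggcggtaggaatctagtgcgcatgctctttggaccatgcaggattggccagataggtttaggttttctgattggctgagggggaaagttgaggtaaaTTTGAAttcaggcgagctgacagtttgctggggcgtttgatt

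**Figure D3:**
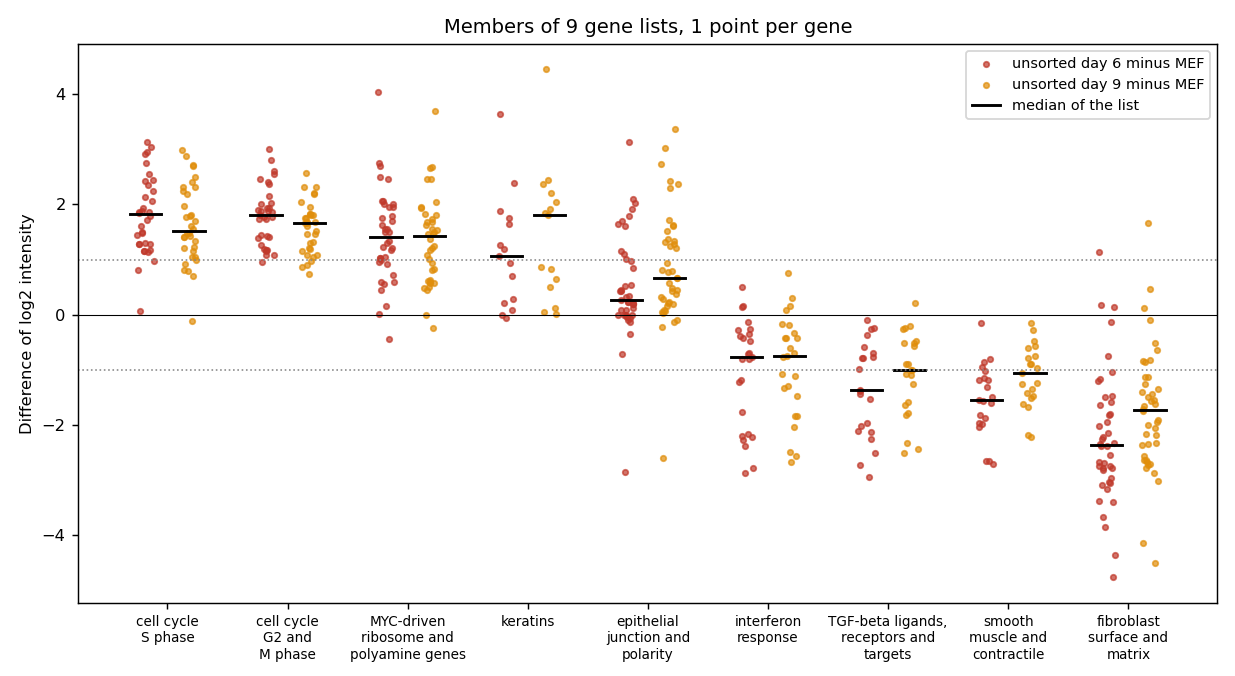
Log2 difference from MEF of list members, one point per gene and day, for unsorted cells at day 6 and at day 9. Members of the fibroblast list lie mostly below -1 and members of the cell cycle lists mostly above 1.

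Genes of ribosome production and polyamine synthesis known as MYC targets were higher in 25 of 38 members (65.8%) and lower in 0, with a list median of 1.42 at both days. Nop16, a nucleolar protein, had an intensity of 1789 and 1750.4 in unsorted cells and 278 in MEF. Polr1b, a subunit of the polymerase that makes ribosomal RNA, had 1504 and 1420.0 in unsorted cells and 222 in MEF. Dyskerin (Dkc1), which modifies ribosomal RNA, had 2665 and 2622 in unsorted cells and 473 in MEF. The 2 unsorted days were close to each other for all 3 genes. The E-box CACGTG was in 11 of 33 promoters of the list (33.3%). It was in 8.09% of all genes with a promoter and in 11.5% of compared genes with one. Among the list it was in 6 of 23 higher members and 5 of 10 others.

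Of cell cycle inhibitors and p53 targets, 2 of 24 (8.33%) were higher and 4 (16.7%) lower, with list medians of -0.15 and -0.13. The inhibitor gene Cdkn1a had an intensity of 7189 and 7725 in unsorted cells and 7552 in MEF, and Cdkn2a, a barrier to reprogramming, had 825 and 719.9 in unsorted cells and 731 in MEF. Rb1, which restrains entry into S phase, was higher, at 2461 and 1935 in unsorted cells and 889 in MEF. The 4 lower members were Igfbp3 and the inhibitor genes Cdkn2b, Cdkn2c and Cdkn1c. Cdkn2b had 449 and 568 in unsorted cells and 1210 in MEF, and Cdkn2c had 287 and 237 against 643. Cdkn1c had 151 and 144 in unsorted cells and 472 in MEF. Among DNA and histone modifiers, 6 of 27 were higher and 0 lower. Dnmt1, which copies DNA methylation at replication, had 2779 and 2450.5 in unsorted cells and 794 in MEF, and Wdr5, a subunit of histone H3 methyltransferases, had 1556 and 1481 in unsorted cells and 310.1 in MEF. In glycolysis 3 of 18 members were higher, among them the hexokinase Hk2 at 828 and 808 in unsorted cells and 196 in MEF. In oxidative phosphorylation 1 of 27 was higher, below the background share, and 0 when each array was centred on its median.

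Epithelial junction and polarity genes were higher in 11 of 41 members (26.8%) and lower in 1. E-cadherin (Cdh1) had an intensity of 456 and 586 in unsorted cells and 206 in MEF. Epcam, an epithelial adhesion protein, had 217 and 436 in unsorted cells and 174 in MEF and passed 2-fold at day 9 but not at day 6. The desmosomal plaque gene Dsp was at the floor in MEF and at least 8.77-fold higher at day 6 and 10.3-fold at day 9. Itgb4, an integrin of hemidesmosomes, had 864 and 1725 in unsorted cells and 212 in MEF. Some junction genes were thus higher, though E-cadherin only by 2.22-fold and 2.85-fold. Most members, 29 of the 41, passed in neither direction. Among these were Ocln, with 180 and 233 in unsorted cells and 133 in MEF, and Cgn, with 162 and 173 against 170. A further 6 members were at the floor on all 3 arrays and not compared. P-cadherin (Cdh3) was the 1 lower member, at 406 and 489 in unsorted cells and 2948 in MEF. Day 9 read above day 6 in 38 of the 41 members, and day 9 taken by itself had 16 higher. With the floor raised to 200, 7 members were higher.

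Keratins, the intermediate filaments of epithelia, were higher in 7 of 15 members (46.7%) and lower in 0, with list medians of 1.06 and 1.81. Krt17 was at the floor in MEF and at least 12.5-fold higher at day 6 and 21.8-fold at day 9. Krt8, a keratin of simple epithelia, had an intensity of 831 and 1372 in unsorted cells and 265 in MEF. Krt18 was at the floor in MEF, read 122 and 156 in unsorted cells and did not pass. With the floor raised to 200, 4 keratins were higher. Keratin genes resemble each other in sequence, so a probe set may also read its relatives. Cornified envelope and keratinocyte genes were higher in 12 of 26 members compared (46.2%) and lower in 1, Il1rn, which did not pass with a floor of 200. Of the 37 members with a probe set, 11 were at the floor on all 3 arrays and not compared, among them Lor and Sprr3. Cornifelin (Cnfn) had 2567 and 1213 in unsorted cells and 184 in MEF, and the calcium-binding protein gene Anxa8 had 2793 and 2995 in unsorted cells and 410.3 in MEF. Trp63, the master regulator of the epidermal basal layer, was at the floor on all 3 arrays. The promoter of Krtdap (RefSeq, GRCm38.p6, chr7:30787655-30787954, + strand) is shown because it holds the AP-1 motif TGANTCA, in capitals. That motif, the same on both strands, was in 14 of 27 list genes with a promoter (51.9%). It was in 8.97% of all genes with one and in 6.3% of compared genes with one. Among the list it was in 6 of 10 higher or lower members and 8 of 17 others.
Krtdap: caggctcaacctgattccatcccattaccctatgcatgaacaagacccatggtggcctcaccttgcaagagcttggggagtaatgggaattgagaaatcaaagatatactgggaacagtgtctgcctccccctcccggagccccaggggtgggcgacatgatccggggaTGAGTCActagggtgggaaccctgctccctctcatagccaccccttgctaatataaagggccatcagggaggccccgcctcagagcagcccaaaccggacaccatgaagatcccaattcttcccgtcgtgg

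Of the pluripotency network, 15 of 38 members with a probe set were at the floor on all 3 arrays. Of the other 23, 7 (30.4%) were higher and 1 (4.35%) lower. Klf4, which the viruses carried, is 1 of the 7. Nr0b1, a nuclear receptor of stem cells, was at the floor in MEF and at least 13.6-fold higher at day 6 and 18.5-fold at day 9. Utf1, a chromatin protein of stem cells, had an intensity of 592 and 961 in unsorted cells, 6013 in ESC and 149 in MEF. Tissue-nonspecific alkaline phosphatase (Alpl), an enzyme long used to stain stem cell colonies, was at least 2.96-fold higher at day 6 and 6.57-fold at day 9. Alpl did not pass at day 6 with a floor of 200 or with the mean of its probe sets. Zfp42, Esrrb and Dppa5a, at the floor on all 3 arrays, read 1528, 487 and 148 in ESC, so the Dppa5a probe set was dim there as well.

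Among sorting and surface markers, 7 of 22 were higher and 3 lower. Nt5e, the gene of CD73, had an intensity of 1207 and 1669 in unsorted cells and 495 in MEF, and Itga4, the gene of CD49d, had 223 and 311 in unsorted cells and 333 in MEF. Nt5e therefore passed 2-fold at both days and Itga4 at neither. The sialoglycoprotein gene Cd24a was higher, at 3721 and 3548 in unsorted cells and 1144 in MEF, and podoplanin (Pdpn) was lower, at 679 and 984 in unsorted cells and 3253 in MEF. Neural markers were higher in 4 of 12 members and lower in 1, the adhesion molecule gene Ncam1, with 1335 and 1391 in unsorted cells and 3776 in MEF. Among the higher ones was the transcription factor Sox1, at the floor in MEF and at least 5.73-fold higher at day 6 and 4.61-fold at day 9. The neuronal marker Dcx was at the floor on all 3 arrays. Of the 5 neural markers used to check cell types, 2 (Sox1 and Stmn2) were higher, with summed intensities of 5736 and 6628 in unsorted cells and 942 in MEF, most of it from Stmn2. The part of neural cells in these values was not tested.

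Relatives of the introduced factors, Klf and Myc family genes, gave 2 higher and 2 lower of 14 members. Mxi1, an antagonist of MYC, had an intensity of 945 and 777 in unsorted cells and 315 in MEF, while Klf2 had 132 and 131 in unsorted cells and 294 in MEF. Klf10 was higher as deposited, with 728 and 949 in unsorted cells and 354 in MEF, but did not pass when arrays were centred or quantile normalised, and Klf2 did not pass with a floor of 200. Immediate early and heat shock genes, which respond to handling and stress, were higher in 1 and lower in 3 of 19 members. The higher one was the chaperone gene Hsp90aa1, with 847 and 962 in unsorted cells and 307 in MEF. Of other lineages, 1 of 9 endothelial genes was higher (11.1%) and 2 lower (22.2%), and 1 of 4 trophoblast genes, Ascl2, was higher (25%). Of 5 macrophage and blood genes 1, Cd53, was lower (20%), and of 8 skeletal muscle genes 0 passed. The shares of the first 3 lists are above the background of 7.77% and 7.72%, each from 1 or 2 genes. They leave out members at the floor on all 3 arrays. These were 4 of 13 endothelial, 8 of 12 trophoblast and 6 of 11 macrophage and blood genes with a probe set. With a floor of 200, neither Ascl2 nor Cd53 passed. The higher endothelial gene was Tek, the angiopoietin receptor, with 616 and 738 in unsorted cells and 117 in MEF, while the endothelial receptor gene Kdr was at the floor on all 3 arrays. The summed intensity of the 5 endothelial markers was 1031 and 1250.4 in unsorted cells and 522 in MEF, and their part in the result was not tested.

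Cells sorted on the same days offered a second setting for the unsorted values. Of all genes compared, 34 (0.254%) were at least 2-fold above every sorted array of their day at both days, and 1 (0.00748%), the small RNA Snord13, at least 2-fold below. Of the 34, 22 were also higher than MEF, among them 4 members of the keratin list, 5 of the cornified envelope and keratinocyte list and 1 of the epithelial list. Krt14 had an intensity of 943 in unsorted cells of day 6, against 163, 212 and 208 in the CD49d+, CD73+ and CD73- cells of that day. At day 9 it had 989 in unsorted cells and 252, 239 and 212 in the same sorted classes. The 6 sorted arrays thus lay much nearer to the MEF value of 181 than the unsorted arrays did. Sprr1a had 1853 in unsorted cells of day 6, against 118, 176 and 199 in the sorted cells, and 1682 at day 9 against 165, 284 and 342. Krt90 was at the floor on all 6 sorted arrays and had 747 and 681 in unsorted cells. The other list members were Krt16, Krt17, Krt6a, Cnfn, Klk10, Sbsn, Sprr1b and Cldn4. Outside the lists, along with Krt90, were Asprv1, Dynap, Gabrp, Klk8, Mall, Nqo1, Serpinb9b and Slurp1 and the small RNAs Snora34, Snora44 and Snord118.

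**Figure D4:**
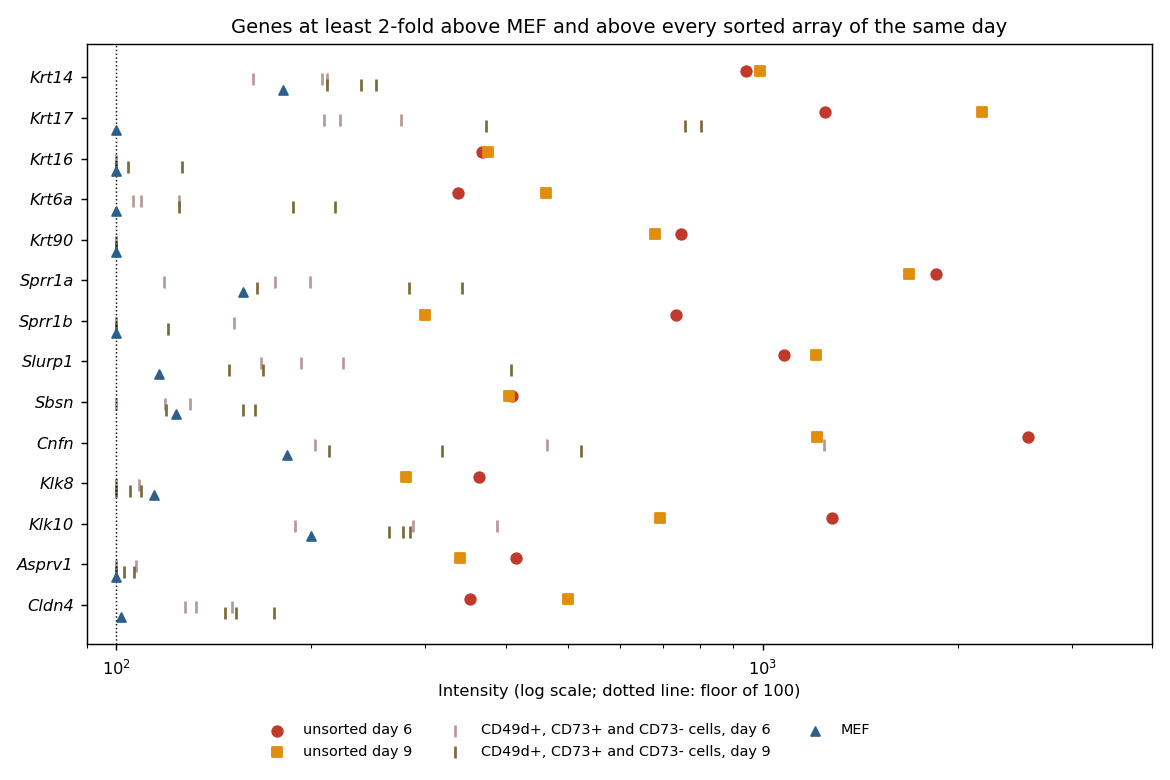
Intensity on a log axis of keratins, other epidermal genes and Cldn4, picked from the 22 genes above MEF and above every sorted array of the same day, in unsorted cells of days 6 and 9, in the sorted cells of the same days and in MEF, 1 point per array. In each gene drawn the unsorted arrays stand to the right of the sorted arrays of their day.

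Most higher genes were not among the 34. Klf4 had 4134 in unsorted cells of day 6, against 3997, 3930.0 and 3965 in the CD49d+, CD73+ and CD73- cells. The unsorted cells were at 1.03 times the highest of these, and for Nr0b1 at day 6 and day 9 at 0.26 and 0.35 times the highest. At day 6 the unsorted array lay within the range of the 3 sorted arrays for 643 of the 1038 higher genes (61.9%), for 709 of the 1032 lower genes (68.7%) and for 60% of all genes. At day 9 it lay within that range for 502 of the higher genes (48.4%), for 465 of the lower genes (45.1%) and for 44.6% of all genes, so fewer than at day 6 lay inside it. Small RNAs made up 8 of the 34 genes above the sorted cells, of 206 small RNA genes compared. The small nucleolar RNA Snord89 had an intensity of 1956 in unsorted cells of day 6, against 323, 300.5 and 331 in sorted cells, and 1948 in MEF. Rny3, a small cytoplasmic RNA, had 1455 in unsorted cells of day 6, against 236, 100 and 100 in sorted cells, and 2223 in MEF. Unsorted cells and MEF were thus alike in level for Snord89 where sorted cells were low. Prelp, a matrix proteoglycan, had 1094 in unsorted cells of day 6, against 265, 298 and 158 in sorted cells, and 2299.9 in MEF. Sorting and any handling that goes with it separate these arrays, and their part in these differences was not tested.

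Between the 2 days, the changed genes, chosen for passing at both, moved little at the median. Some lists moved more, such as the fibroblast surface and matrix list, with medians of -2.36 at day 6 and -1.73 at day 9. Day 9 read above day 6 in 216 of the 1038 higher genes (20.8%) and in 652 of the 1032 lower genes (63.2%), against 40.3% of all genes, with median differences of -0.12 and 0.08 log2 units. With each array centred on its median, the median difference from MEF of all genes was -0.13 at day 6 and -0.04 at day 9. Counts of genes with day 9 above day 6, here and in the lists, therefore depend on the scaling. A further 403 genes were higher and 204 lower at day 6 without passing at day 9, and 95 and 117 at day 9 without passing at day 6. These counts share the MEF array and the threshold, and are given as a description. In ESC, 42 of the higher genes (4.05%) and 198 of the lower genes (19.2%) were at the floor, against 10.1% of all genes compared. In SC4 the counts were 41 (3.95%) and 314 (30.4%), against 11.6% of all genes.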

How the data were processed

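RNA was purified on RNeasy columns with a DNase step and labelled for whole-transcript GeneChip arrays, according to the submitters' protocols. The authors deposited intensities on a linear scale, floored at 100, for 41345 probe sets on each of 11 arrays. The submitters' processing notes name Partek with no version. How probes were summarised, corrected for background and scaled, and the build behind the array design, are not given.

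Of the probe sets, 23521 had 1 gene symbol, 1814 several and 16010 none, in GEO's platform annotation. Symbols were updated by gene ID for 23328 probe sets from RefSeq's GRCm38.p6 gene table, used for names only. This gave 22180 genes, and where a gene had several probe sets (1082 genes) the one with the highest mean over the 11 arrays was used. Genes at the floor on all 3 arrays (8816) were left out, and 13364 were compared. Values were taken to log2 and subtracted, with no further scaling, in Python 3.11.15 with pandas 2.3.3 and numpy 2.4.6, and drawn with matplotlib 3.10.9. The counting was tested on simulated data. With 1 array per group there is no test, and the number of arrays limits the precision.

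Named genes were the 12 higher and the 12 lower genes with the largest smaller difference of the 2 days, above the floor on all 3 arrays and leaving out predicted genes and small RNAs. To these were added genes at the floor on one side with a bound of at least 8-fold (raised to 16-fold for genes at the floor in MEF), up to 6 members per direction of each of 28 gene lists, the markers, and the genes nearest the threshold. Gapdh, Actb, Hprt, list members that did not pass 2-fold and genes set against the sorted cells were chosen after their values were seen. The genes, lists and motifs were chosen with earlier results of these data known, so no list is independent support, and some genes stand in more than 1 list. Promoter windows came from RefSeq's GRCm38.p6 table, and a gene counted once where any of its windows held the motif. In motif counts, the other list members may include genes at the floor on all 3 arrays or without a probe set of 1 symbol. Other scalings, thresholds, filters and floors were tried. Centring of an array used its median over genes above the floor on all 3 arrays.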

Additional observations from a re-analysis of the deposited data

How the results depend on the processing

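Counts of genes higher and lower than MEF at both days were within 1.5 times the reported 1038 and 1032 under both scalings, both filters, the raised floor, the mean of a gene's probe sets, and the removal of predicted genes and small RNAs (998 and 998, an alternative chosen after seeing the data). Centring each array on its median moved the median of all genes to -0.13 at day 6 and -0.04 at day 9 and gave 938 higher and 1131 lower. At 1.5-fold there were 2079 higher and 1900 lower at both days, 2744 and 2226 at day 6, 2248 and 2178 at day 9, and 256 and 306 for day 9 minus day 6. At 4-fold there were 175 and 245 at both days, 257 and 344 at day 6, 223 and 269 at day 9, and 3 and 0 for day 9 minus day 6. These shifts follow from the thresholds. The 36 genes lower at day 9 than at day 6 became 20 with centring (67 higher), 21 among genes above the floor on all 3 arrays and 22 with a floor of 200, and the cause was not tested. Of 3696 values of named genes under the alternatives 150 moved by more than 1.5-fold and 0 changed sign. Of 280 list counts 28 moved, 12 at 1.5-fold, 10 with a floor of 200, 3 with centring, 2 with the mean of probe sets and 1 with quantile normalization. With a floor of 200, higher members fell to 7 of the epithelial list (11 as reported), 4 of the keratins (7) and 0 of the mesenchymal factors and trophoblast markers (1 each), and lower members to 0 of the cornified envelope, pluripotency and macrophage lists (1 each).

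No paired analysis was possible because each group has 1 array and the labels give no replicate numbers. For the same reason no replicate was left out. Values at the floor give only bounds.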
